A study of Bos taurus with 147 samples.

Results

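The step from d 60 to d 135 of gestation in bovine longissimus muscle was measured on 6 two-colour cDNA arrays, of 25 arrays that linked 8 groups of fetuses and newborn calves and of 147 arrays in the whole series. The arrays were taken by their titles, 3 of d 135 against d 60 in Piedmontese-sired fetuses and 3 of d 135 against d 60 in Wagyu-sired fetuses. All fetuses were out of Hereford dams and of mixed sex. The Piedmontese bulls were homozygous for a missense mutation of the myostatin gene (GDF8), the brake on muscle mass, and the Wagyu bulls did not carry it. The methods name 3 fetuses for each group and place each on more than 1 array. They give a slightly earlier day for the second stage than the array titles, which call it d 135. The study lists every d 135 Piedmontese-sired fetus at a younger age than every d 135 Wagyu-sired one. At this stage age and sire breed therefore cannot be told apart. A single bull of each breed sired all d 60 fetuses of a cross, the same Wagyu bull sired the d 135 Wagyu fetuses, and the d 135 Piedmontese-sired fetuses came from a pair of bulls, so that stage and sire cannot be told apart within the Piedmontese cross. At d 60 the longissimus was not yet a separate muscle, and tissue from its future position was taken, from which skin was harder to dissect away. All RNA was linearly amplified before labelling. The study reports that amplification may have biased the sample of a single individual at the earliest stage. Because of the sampling and this possible bias, the authors centred their discussion of expression on the later stages. Every ratio of the step rests on d 60 tissue, and the part of sampling and amplification in these ratios was not tested.

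Muscle fibres are built by fusion of myoblasts in successive waves, in cattle as in other large mammals. The first fibres form in the embryo and serve as scaffolds for a later and larger generation of fibres in the fetus. As fibres mature they fill with sarcomeres, in which actin-based thin filaments anchored at the Z-disc slide past myosin-based thick filaments, and they gain the calcium stores, glycolytic enzymes and mitochondria that supply contraction. The mesenchyme around them lays down fibronectin, collagens and proteoglycans, and undifferentiated cells carry nonmuscle actins, vimentin and secreted growth-factor binding proteins.

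Each value is the log2 ratio of d 135 over d 60, so that 1 stands for a 2-fold higher level in the later tissue, after each array was centred on its own median. The ratio was read as Cy5 over Cy3, a likely direction that rests on the labelled dyes and on the arrows of the design drawing. Cy5 carried the d 60 RNA on the Piedmontese arrays and the d 135 RNA on the Wagyu arrays. A dye effect therefore cancels in the mean of both sire breeds, while in the single array values it shifts the crosses in opposite directions. A gene's value is the mean of the cDNA elements that carry its name, and such elements can also bind the RNA of close relatives. The probes were printed in duplicate, so that the elements of a gene are not all independent. The 6 arrays held 19404 to 20709 usable ratios each, with the lowest number on Wagyu array 2, where 1548 ratios were missing and 216 were at the upper limit of the table. The median absolute deviation of the centred ratios was 0.531 to 0.713 on the Piedmontese arrays and 0.457 to 0.534 on the Wagyu arrays, against 0.283 on the single array on which muscle RNA was hybridised to itself. Of the 10 muscle markers, 8 were measured, and all 8 (ACTA1, CKM, MYL11, TNNI2, TNNT3, MYH1, TCAP and DES) rose at this step. In whole tissue, fewer cells of a type and less RNA per cell cannot be told apart. The number of arrays, 3 for each cross, limits the precision of every value.

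Between d 60 and d 135 the longissimus gained transcripts of the contractile apparatus, of glycolysis and of parts of the respiratory chain, and lost transcripts of the matrix, of nonmuscle cytoskeleton and of chaperones of the secretory pathway. Falls were called more often in the Piedmontese than in the Wagyu cross, in these lists as over all features. In the mean of both sire breeds, 132 of 975 named genes rose and 175 fell (limma, Benjamini-Hochberg adjusted p under 0.05 over all 16659 features). That is 13.5% and 17.9% of the named genes, 31.5% in all, where the same test called 14.0% of all features higher and 17.0% lower, 31.0% in all. The median ratio was -0.03 over all features and -0.06 over the named genes. The steps were of moderate size: 28 named genes rose and 24 fell by more than 2-fold, and 0 passed 4-fold. On 935 named genes with 6 values, 336 had the same sign on all 6 arrays, which is 35.9%, the same share as over all features. The tests take the arrays as independent although they share fetuses, so that their p-values are too small by an unknown amount.

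The largest rise was that of TCAP, which caps titin at the Z-disc. Its log2 ratios were 1.83, 1.87 and 2.27 on the Piedmontese arrays, against 1.76, 1.99 and 1.86 on the Wagyu arrays, a 3.81-fold rise in the mean of both crosses (1.93 ± 0.20 SE, adjusted p = 9.71e-07). CA3, the carbonic anhydrase of muscle, followed at 3.44-fold, with ratios of 1.91, 1.53 and 1.61 on the Piedmontese arrays, against 1.70, 2.49 and 1.47 on the Wagyu arrays. CKM, the cytosolic creatine kinase of muscle, rose 3.1-fold and gave 2.29, 1.70 and 1.14 on the Piedmontese arrays, against 1.68, 1.71 and 1.29 on the Wagyu arrays. The arrays of the crosses overlapped for all 3 genes, and no array of either cross was near 0. RTN2, a reticulon of the endoplasmic reticulum membrane, stood at 1.96, 1.87 and 1.76 on the Piedmontese arrays, against 1.02, 1.68 and 1.02 on the Wagyu arrays, with all 3 Piedmontese values above the Wagyu ones. CYC1, the cytochrome c1 subunit of complex III, gave 2.34, 1.90 and 0.92 on the Piedmontese arrays, against 0.93, 1.80 and 1.13 on the Wagyu arrays, a wide range in each cross. The remaining genes among the 10 largest rises with the same sign throughout were MYL1, an essential light chain of fast myosin (1.44 ± 0.13), PYGM, the glycogen phosphorylase of muscle (1.41 ± 0.23), CFB, complement factor B (1.39 ± 0.17), PGM1, which joins glycogen to glycolysis (1.38 ± 0.18), and ENO3, the muscle enolase (1.28 ± 0.13).

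Among the falls FN1, which encodes the matrix protein fibronectin, came first at 3.23-fold lower in d 135 than in d 60 muscle. Its ratios were -1.99, -2.19 and -2.20 on the Piedmontese arrays, against -1.26, -1.04 and -1.46 on the Wagyu arrays, and its 16 elements lay between -2.01 and -1.51. PHLDB2, a cortical protein that anchors microtubules near adhesions, gave -2.05, -2.04 and -2.19 on the Piedmontese arrays, against -1.13, -1.32 and -1.32 on the Wagyu arrays (adjusted p = 3.75e-09). For both genes the Piedmontese arrays lay below all Wagyu arrays. HSP90B1, the HSP90 of the endoplasmic reticulum, overlapped between the crosses, with -1.52, -1.92 and -1.40 on the Piedmontese arrays, against -1.46, -1.54 and -0.95 on the Wagyu arrays. COL12A1, a collagen that decorates fibrils, fell at -1.43 ± 0.21, with Wagyu array 1 at -0.41 and the other 5 arrays between -1.88 and -1.42. IGFBP2, a carrier of insulin-like growth factors, gave -0.99, -0.87 and -1.86 on the Piedmontese arrays, against -1.71, -1.32 and -1.27 on the Wagyu arrays. VIM, the vimentin of intermediate filaments in immature and mesenchymal cells, had 3 nearly equal Wagyu values, with -1.04, -1.50 and -1.82 on the Piedmontese arrays, against -1.07, -1.06 and -1.09 on the Wagyu arrays (adjusted p = 2.66e-08). The others of the 10 largest falls with the same sign throughout were THBS2, a matricellular thrombospondin (-1.24 ± 0.21), FLVCR2, a membrane transporter of the heme carrier family (-1.22 ± 0.14), PLS3, an actin-bundling plastin (-1.21 ± 0.32), and WSB1, a substrate receptor of a ubiquitin ligase (-1.21 ± 0.14).

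**Figure D1:**
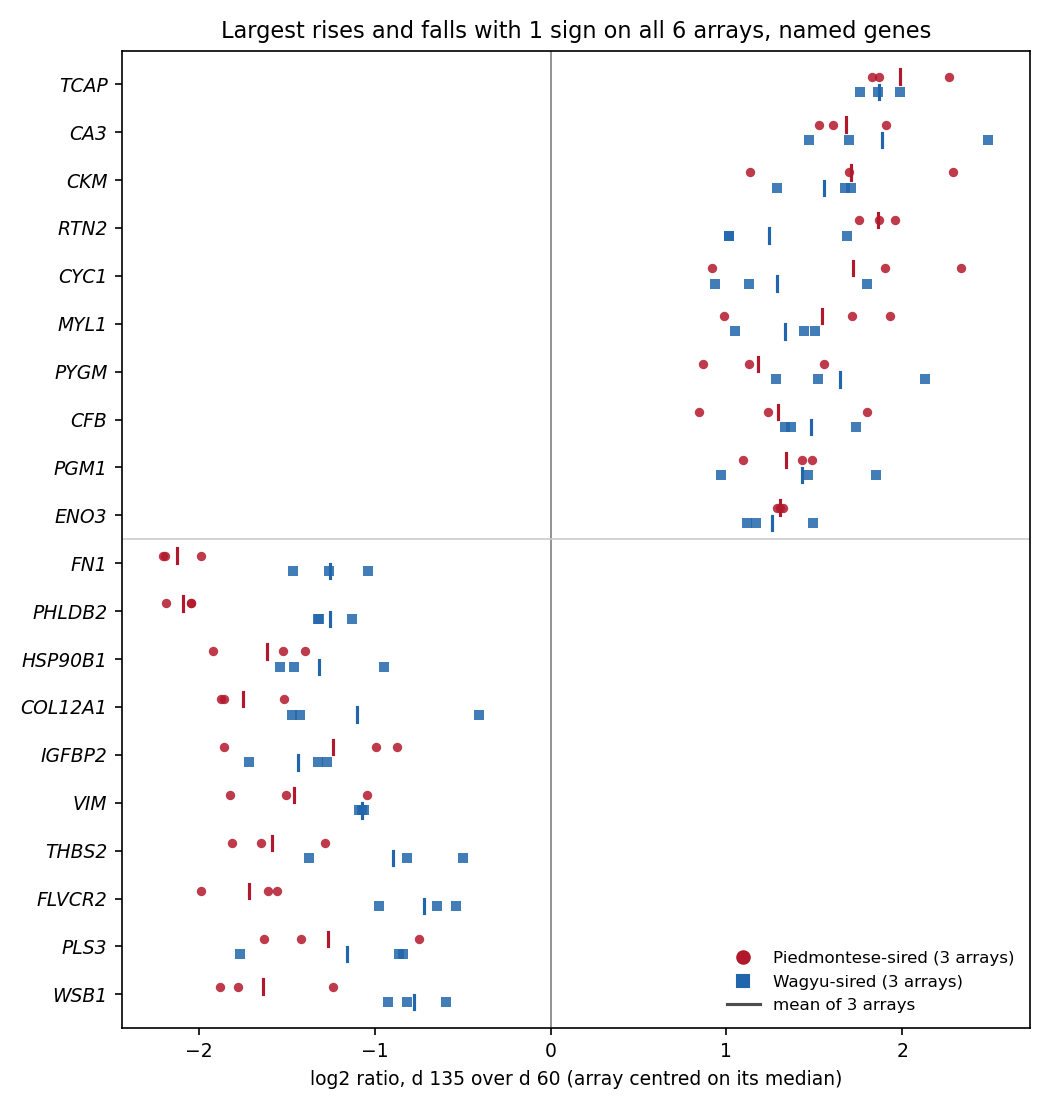
Log2 ratio of d 135 over d 60 on each of the 6 arrays (points) for the 10 largest rises and the 10 largest falls among named genes with the same sign on all 6 arrays, with the Piedmontese-sired arrays above the Wagyu-sired arrays in each row and a bar at the mean of 3 arrays. TCAP lay between 1.76 and 2.27 on all arrays, and for FN1 and PHLDB2 the 3 Piedmontese values were below the 3 Wagyu values.

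The sarcomere lists moved mostly upwards. Over all features 14.0% were called higher and 17.0% lower, the shares against which this and the later lists stand. Of 33 measured genes of the thin filament and Z-disc, 21 rose, 1 fell and 11 did not pass the test, with a median of 0.64. Among the rises, TNNI2, the fast isoform of the inhibitory troponin, gave 0.85, 1.42 and 1.37 on the Piedmontese arrays, against 1.51, 1.30 and 1.14 on the Wagyu arrays. MYOZ1, which ties calcineurin to the Z-disc, rose at 1.21 ± 0.16, PDLIM3, an adaptor of alpha-actinin, at 1.10 ± 0.12, and ACTA1, the skeletal alpha-actin, at 1.06 ± 0.18, with 183 of its 184 elements above 0. The intermediate filament protein DES (desmin) rose at 0.86 ± 0.25 in the mean, though it passed the threshold in neither cross alone. TPM3, a tropomyosin of slow fibres and nonmuscle cells, was the 1 that fell, at -0.48 ± 0.16. For the thick filament and M-band, 6 of 9 genes rose and 0 fell, led by MYL1, by MYL11, the regulatory light chain of fast myosin (1.12 ± 0.19), and by MYBPC1, the slow isoform of myosin-binding protein C (1.01 ± 0.19). MYBPC1 gave 1.03, 0.24 and 0.34 on the Piedmontese arrays, against 1.36, 1.81 and 1.28 on the Wagyu arrays, which puts Piedmontese arrays 2 and 3 far below the rest. MYOM2, an M-band crosslinker, rose at 0.52 ± 0.11. LDB3, SMPX, TPM1, TPM2 and XIRP1, further parts of the Z-disc and thin filament, were among the other rises, at 0.75, 0.91, 0.84, 0.91 and 0.53. NEB (nebulin), the ruler of the thin filament, stood at 0.09 ± 0.13 and did not pass. On the array used, built from adult muscle and subcutaneous fat, 0 of 8 embryonic and fetal isoforms of the sarcomere were measured, so that a switch of isoforms was not examined.

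All 9 measured fast fibre genes rose, with a median of 0.79, and every one of them was above 0 on all 6 arrays. On each array the median of the list lay between 0.86 and 1.17 in the Piedmontese cross and between 0.70 and 0.96 in the Wagyu cross. MYH1, a fast myosin heavy chain, was among the smaller rises at 0.57 ± 0.18, with values of 0.61, 0.37 and 0.30 on the Piedmontese arrays, against 1.08, 0.51 and 0.57 on the Wagyu arrays. The fast troponin T gene TNNT3 rose at 0.65 ± 0.11 but also had a dye effect past the threshold (-0.27, adjusted p = 0.0135), and its 28 elements ranged from -1.08 to 1.77. The fast alpha-actinin ACTN3 rose at 0.52 ± 0.18, carried by Piedmontese array 3 at 1.25, where the other 5 arrays lay between 0.22 and 0.56, and the call was lost without that array (0.39) or any 1 of the Wagyu arrays (0.50 to 0.54). Of 9 slow fibre genes, 4 rose, 1 fell and 4 did not pass, with a median of 0.25. CSRP3, a stretch-related LIM protein of the Z-disc, rose at 1.07 ± 0.21, and TNNC1, the troponin C of slow and cardiac muscle, at 0.60 ± 0.14. MYL2 and TNNT1, slow isoforms of the regulatory light chain and of troponin T, gave 0.25 ± 0.20 and 0.15 ± 0.10 and did not pass. Whether the fast and slow lists differ was not tested. All fast fibre genes, and all slow fibre genes but MB, also stand in the thin filament, thick filament or calcium handling lists. They are counted there as well.

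For excitation and calcium handling, 7 of 12 genes rose and 1 fell, but without Wagyu replicate 2 only 4 rose. STAC3, an adaptor of the voltage sensor of muscle, rose at 1.04 ± 0.26, TMEM38A, an intracellular cation channel, at 0.85 ± 0.16, and CASQ1, the calcium buffer of the fast sarcoplasmic reticulum, at 0.79 ± 0.16. CALM, a calmodulin gene, fell at -0.64 ± 0.16. ASPH, whose gene also encodes junctin (0.87 ± 0.30), and JPH1, which holds the triad membranes together (0.60 ± 0.19), rose too. The slow and cardiac calcium pump ATP2A2 stood at -0.62 ± 0.25 and did not pass in the mean, although it fell in the Piedmontese cross (-1.02 ± 0.33), while the fast pump ATP2A1 rose at 0.44 ± 0.13.

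**Figure D2:**
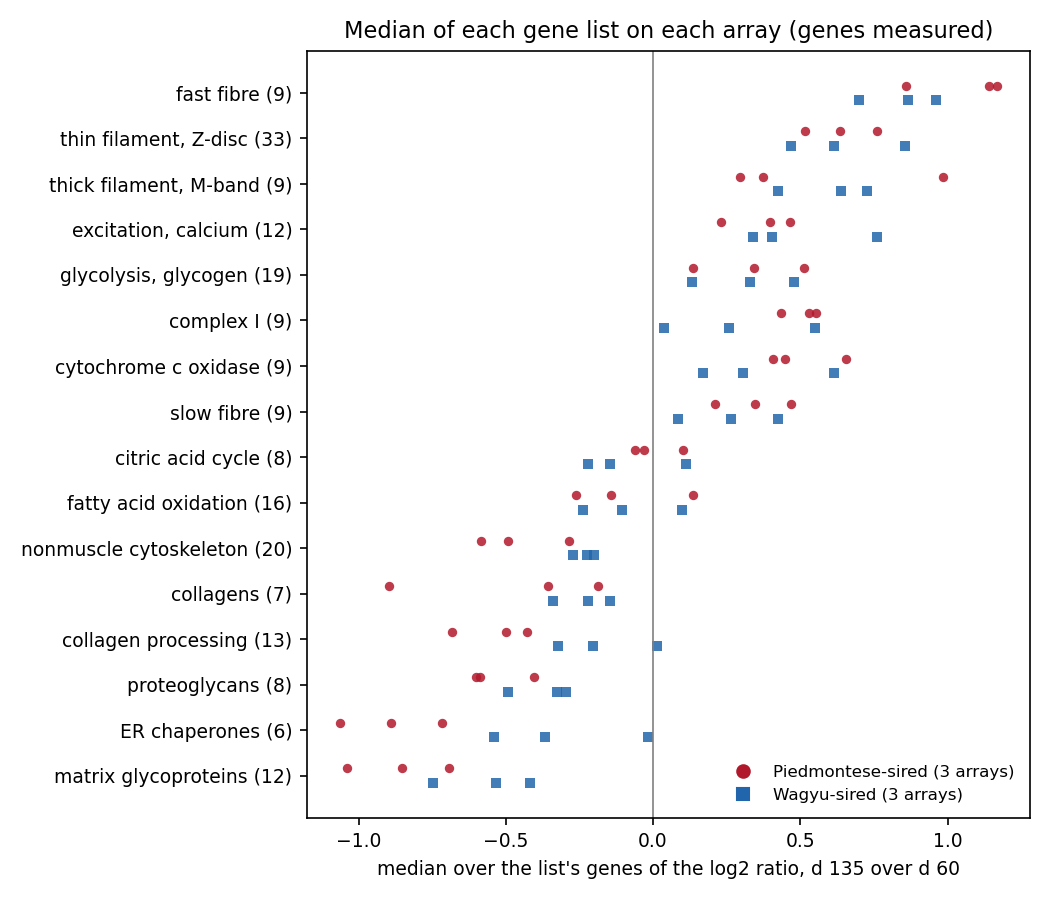
Median over the measured genes of each list (their number in brackets) of the log2 ratio of d 135 over d 60, 1 point for each array, with the Piedmontese-sired arrays above the Wagyu-sired arrays. The fast fibre list was above 0.69 on all 6 arrays, the matrix glycoproteins were below -0.41 on all 6, and the citric acid cycle and fatty acid lists had values on both sides of 0.

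In glycolysis and glycogen metabolism, 8 of 19 genes rose and 2 fell. The muscle isoforms of the enzymes stood at the top. PGAM2, the phosphoglycerate mutase of muscle, rose 2.28-fold with 1.36, 1.57 and 1.21 on the Piedmontese arrays, against 0.98, 1.12 and 0.90 on the Wagyu arrays. ALDOA, the muscle aldolase, rose at 1.17 ± 0.19 and PFKM, the muscle phosphofructokinase, at 1.11 ± 0.16. ENO3 was among the least variable genes, with 1.32, 1.30 and 1.29 on the Piedmontese arrays, against 1.17, 1.49 and 1.11 on the Wagyu arrays and all 56 elements above 0. ENO1, the enolase of most tissues, fell at -0.37 ± 0.13, a call that was lost on leaving out any array but Piedmontese 1, with values between -0.39 and -0.30. Lactate dehydrogenase showed the same opposition, with LDHA, its muscle subunit, up at 0.49 ± 0.15 and LDHB, its heart subunit, down at -0.59 ± 0.11. LDHA did not pass without Piedmontese replicate 3 (0.42) or Wagyu replicate 2 (0.41). TPI1, the triosephosphate isomerase, rose at 0.86 ± 0.22, while GAPDH (0.42 ± 0.25) and PKM (-0.11 ± 0.12), which serve glycolysis in nearly every cell, did not pass, nor did FBP2, the muscle fructose bisphosphatase (0.44 ± 0.18). Of 9 phosphotransfer genes 3 rose and 0 fell: CKM, AK1 and SLC25A4. AK1, the adenylate kinase of the cytosol, gave 1.68, 1.67 and -0.54 on the Piedmontese arrays, against 1.34, 1.76 and 1.84 on the Wagyu arrays, with Piedmontese array 3 as the only array below 0. SLC25A4, the ADP/ATP carrier of muscle mitochondria, rose at 0.73 ± 0.19. CKMT2, the mitochondrial creatine kinase of muscle, stood at 0.30 ± 0.28, and VDAC2, a channel of the outer membrane, at -0.30 ± 0.14. Neither passed.

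Nuclear genes of the respiratory chain rose in part. In complex I, 6 of 9 genes rose and 1 fell, by small steps such as 0.61 ± 0.12 for NDUFB9, 0.58 ± 0.11 for NDUFB11 and 0.55 ± 0.17 for NDUFA6. The 1 that fell was NDUFV3 (-0.44 ± 0.09), which was below 0 on all 6 arrays. In complexes II and III and cytochrome c, CYC1, UQCR11 (0.67 ± 0.16) and UQCRQ (0.60 ± 0.13) rose out of 6 genes, while SDHA of complex II (0.23 ± 0.18) did not pass. Of 9 cytochrome c oxidase genes 5 rose and 0 fell, with COX6A2, the heart and muscle isoform of its subunit, at 1.13 ± 0.22, COX17, the copper chaperone, at 0.78 ± 0.15, COX5B at 0.56 ± 0.16 and COX7B at 0.38 ± 0.14. These counts were fragile: without Piedmontese replicate 3, 2 genes of complex I and 2 of cytochrome c oxidase rose, and without Wagyu replicate 3 the same numbers did. Without Piedmontese replicate 2 there were 3 of each, and without Wagyu replicate 2 there were 2 of complex I. Of 9 ATP synthase genes 4 rose and 0 fell, among them ATP5IF1, an inhibitor of the enzyme (0.76 ± 0.14), ATP5MG (0.62 ± 0.15) and ATP5PF (0.61 ± 0.16). ATP5MK rose at 0.43 ± 0.14. The subunits of its catalytic head, ATP5F1A (-0.31 ± 0.18) and ATP5F1B (0.07 ± 0.20), did not pass in the mean, although ATP5F1A fell in the Piedmontese cross (-0.67 ± 0.24).

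Fuel oxidation ahead of the chain did not move in that direction. Of 8 genes on the citric acid cycle list 0 rose and 2 fell. IDH1 (-0.61 ± 0.10) makes NADPH in the cytosol and is not part of the cycle itself. IDH3A (-0.53 ± 0.16) belongs to the mitochondrial isocitrate dehydrogenase. The count of falls was 1 without Piedmontese replicate 3, Wagyu replicate 2 or Wagyu replicate 3. Of 16 genes of fatty acid uptake and oxidation, 0 passed in either direction, with 6 above 0 and a median of -0.10. The smallest p-values there belonged to HADHB, of the trifunctional protein (-0.39 ± 0.23), UCP2, an uncoupling protein (-0.27 ± 0.13), CPT2, a carnitine acyltransferase (-0.18 ± 0.10), and CD36, the fatty acid transporter (0.25 ± 0.16). SUCLA2 (0.24 ± 0.17) and OGDH (0.21 ± 0.16) of the citric acid cycle did not pass either. The oxygen store myoglobin (MB) rose at 0.77 ± 0.14, while EPAS1, a hypoxia-inducible transcription factor, stood at -0.12 ± 0.11 and did not pass.

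Most of the matrix genes that passed the test fell, where over all features 17.0% were called lower and 14.0% higher. Among 12 matrix glycoproteins 7 fell (58.3%) and 1 rose, with a median of -0.67. In the single crosses 6 fell in the Piedmontese and 3 in the Wagyu fit, where 15.2% and 4.95% of all features fell. SPP1 (osteopontin) gave -1.19, -1.45 and -0.54 on the Piedmontese arrays, against -0.99, -1.65 and -1.15 on the Wagyu arrays. CCN2, a matricellular growth factor of connective tissue, gave -1.01, -1.85 and -1.44 on the Piedmontese arrays, against -0.56, -0.91 and -1.12 on the Wagyu arrays. FBN1, the fibrillin of elastic microfibrils, stood at -1.30, -1.20 and -1.47 on the Piedmontese arrays, against -0.61, -0.38 and -0.86 on the Wagyu arrays, without overlap of the crosses. MGP, an inhibitor of matrix calcification, was the 1 that rose, at 0.47 ± 0.14. Of 7 collagens 3 fell and 0 rose: COL12A1, COL3A1 (-0.69 ± 0.12) and COL1A2 (-0.68 ± 0.24). In the single crosses 3 collagens fell in the Piedmontese and 1 in the Wagyu fit. COL3A1 gave -1.05, -1.11 and -1.15 on the Piedmontese arrays, against -0.44, -0.15 and -0.23 on the Wagyu arrays, and COL1A2 gave -0.78, -1.48 and -1.42 on the Piedmontese arrays, against 0.27, -0.22 and -0.45 on the Wagyu arrays, with 1 Wagyu array above 0. The calls of COL1A2 and SPARC were lost without Piedmontese replicate 2 or 3 or Wagyu replicate 2 or 3, at values of -0.66 to -0.60 for COL1A2 and -0.57 to -0.49 for SPARC. COL1A1, the other chain of type I collagen, stood at -0.31 ± 0.25 and did not pass, nor did COL6A2 (-0.29 ± 0.13). For these 3 collagens that fell, all Piedmontese arrays lay below all Wagyu arrays. SPARC, a collagen-binding matrix protein, fell at -0.56 ± 0.18 with 0 of its 50 elements above 0, and the fitted steps were -0.92 ± 0.24 in the Piedmontese and -0.20 ± 0.24 in the Wagyu cross.

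Of 8 proteoglycans 4 fell and 0 rose, a count of 2 without Piedmontese replicate 1 or 2 or Wagyu replicate 1 or 3. In the single crosses 5 fell in the Piedmontese and 1 in the Wagyu fit. OGN (osteoglycin) fell at -0.95 ± 0.17, DCN (decorin) at -0.54 ± 0.12 and LUM (lumican) at -0.43 ± 0.15, all small leucine-rich proteoglycans of collagen fibrils. SDC2, a syndecan of the cell surface, fell at -0.66 ± 0.22 on 5 arrays, since Wagyu array 2 had no value. GPC3, a glypican of the cell surface, stood at -0.27 ± 0.13 and did not pass in the mean, although it fell in the Piedmontese cross (-0.48 ± 0.17). SRGN (serglycin), a proteoglycan of secretory granules, stood at -0.44 ± 0.21 with -0.21, -2.09 and -0.28 on the Wagyu arrays and did not pass. Of 13 genes of collagen processing and matrix turnover 3 fell and 0 rose, a share of falls (23.1%) near the 17.0% over all features. All 3 were cathepsins: CTSB (-0.59 ± 0.09), CTSK (-0.68 ± 0.22) and CTSV (-0.72 ± 0.18). CTSB varied little, with -0.50, -0.72 and -0.70 on the Piedmontese arrays, against -0.64, -0.54 and -0.42 on the Wagyu arrays. P4HB, which folds procollagen as part of prolyl hydroxylase, stood at -0.70 ± 0.27 and did not pass.

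Chaperones and secretory proteins of the endoplasmic reticulum fell in 4 of 6 measured cases. HSPA5, the luminal HSP70, gave -1.45, -1.27 and -1.47 on the Piedmontese arrays, against -1.40, -0.20 and -1.14 on the Wagyu arrays, with Wagyu array 2 far from the others. ARF4, a GTPase of vesicle traffic, fell at -0.71 ± 0.24, and RPN1, of the oligosaccharyl transferase, at -0.42 ± 0.11. The median of the list lay between -1.06 and -0.72 on the Piedmontese arrays and between -0.54 and -0.02 on the Wagyu arrays, without overlap. This held for the median only. Of the 6 genes, 0 had all Piedmontese arrays below all Wagyu arrays, against 14.3% of all features with 6 values. In array values dye and sire breed cannot be told apart. In the fit of each cross 5 fell in the Piedmontese and 2 in the Wagyu cross. Of 20 nonmuscle cytoskeleton genes 9 fell and 1 rose. In the single crosses 9 of them fell in the Piedmontese and 3 in the Wagyu fit. ACTG1, a cytoplasmic actin, fell where ACTA1 rose, with -0.98, -1.13 and -1.30 on the Piedmontese arrays, against -0.77, -0.72 and -1.08 on the Wagyu arrays (adjusted p = 2.04e-06). TUBA1A, an alpha-tubulin of growing cells, gave -1.69, -1.41 and -1.81 on the Piedmontese arrays, against -0.91, -0.45 and -0.05 on the Wagyu arrays, where all Piedmontese arrays lay below the Wagyu ones. ACTB, the other cytoplasmic actin, fell at -0.59 ± 0.12. LGALS1 (galectin-1) was the 1 that rose, at 0.90 ± 0.20. STMN1, which frees tubulin in dividing cells, fell at -0.74 ± 0.18. It stands in the cytoskeleton list and was also the only 1 of 3 measured cell cycle and chromatin genes to pass, with CDKN1A, a cell cycle inhibitor, at -0.42 ± 0.18 and HMGA1, a chromatin protein of growing cells, at -0.0013 ± 0.13.

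Growth regulators and myogenic factors divided, with 5 of 18 up and 5 down. Of the insulin-like growth factor binding proteins, IGFBP2, IGFBP3, IGFBP4 and IGFBP5 fell, while IGFBP6 rose. IGFBP3, the main carrier in blood, gave -0.35, -0.69 and -1.60 on the Piedmontese arrays, against -1.93, -1.25 and -1.30 on the Wagyu arrays, the 3 Wagyu arrays lying lower than Piedmontese arrays 1 and 2. IGFBP4 fell at -0.56 ± 0.15, IGFBP5 at -0.52 ± 0.16, and IGFBP6 rose at 0.61 ± 0.19. In the study's quantitative PCR on total RNA, IGFBP5 was nearly unchanged at this step, without significance. The study's own array ratio for IGFBP5 was lower at the later stage, also without a mark of significance. IGFBP4 did not pass without Piedmontese replicate 2 (-0.44), IGFBP5 without that array (-0.45) or Wagyu replicate 2 (-0.48), and IGFBP6 without Piedmontese replicate 3 (0.54) or Wagyu replicate 1 (0.57). The growth factors themselves, IGF1 (0.19 ± 0.20) and IGF2 (0.02 ± 0.13), did not pass. Of the myogenic regulators, MYF6, the factor of late differentiation, rose at 1.18 ± 0.33, while MYOG (-0.10 ± 0.12) and MYF5 (-0.19 ± 0.18) did not pass. ID1, which binds and blocks such factors, fell at -0.83 ± 0.20. CAV3, the caveolin of the sarcolemma, rose on every array, with 1.22, 0.89 and 1.41 on the Piedmontese arrays, against 0.70, 1.41 and 1.39 on the Wagyu arrays. MUSTN1, a small nuclear protein of muscle and bone growth (0.71 ± 0.20), and GRB10, an adaptor that damps insulin signalling (0.67 ± 0.18), completed the 5 that rose. Without Piedmontese replicate 2, 3 genes of the list fell.

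Of 25 adipocyte and lipid genes 2 rose, 3 fell and 20 did not pass. These are shares of 8% and 12%, below the 14.0% and 17.0% over all features. FABP4, a fatty acid binding protein of adipocytes and capillary endothelium, rose at 0.74 ± 0.15 with 0.22, 0.88 and 0.88 on the Piedmontese arrays, against 1.11, 0.32 and 1.06 on the Wagyu arrays, all above 0. THRSP, a lipogenic nuclear protein, rose at 0.42 ± 0.12. The 3 that fell serve fatty acid synthesis. ACLY, which makes cytosolic acetyl-CoA, gave -1.11, -1.25 and -1.42 on the Piedmontese arrays, against -0.65, -1.28 and -0.63 on the Wagyu arrays. ACACA, which carboxylates it, gave -1.03, -2.02 and -1.25 on the Piedmontese arrays, against -0.56, -0.66 and -0.83 on the Wagyu arrays, without overlap of the crosses. SREBF1, a transcription factor of lipogenesis, fell at -0.84 ± 0.22. ADIPOQ (0.22 ± 0.12) and LEP (0.19 ± 0.19), hormones of mature adipocytes, did not pass. Without Wagyu replicate 2, 1 of the 25 rose and 6 fell.

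The protein synthesis lists moved little. Of 50 cytosolic ribosomal proteins 7 rose, 4 fell and 39 did not pass, with a median of 0.18. These are shares of 14.0% and 8%, against 14.0% and 17.0% over all features. The count of rises was 1 without Piedmontese replicate 2, 2 without Wagyu replicate 3 and 3 without Piedmontese replicate 3 or Wagyu replicate 2. RPS28 rose at 0.99 ± 0.19, whereas RACK1, a scaffold on the small subunit, fell at -0.56 ± 0.09, RPL4 at -0.54 ± 0.10 and RPSA at -0.53 ± 0.15. RPL5 was among the 5 largest falls of the Piedmontese cross (-1.79 ± 0.63 in the fit) and stood at -1.30, -2.98 and -0.55 on its arrays. Of 12 translation factors 2 rose (16.7%) and 1 fell (8.33%), against 14.0% and 17.0% over all features. These were EIF3M, of the initiation complex (0.97 ± 0.16), EEF1D, of elongation (0.44 ± 0.13) and NACA, a chaperone of nascent chains (-0.52 ± 0.13). TPT1, a translationally controlled protein, stood at 0.32 ± 0.15 and did not pass. Among 11 genes of RNA binding and processing 5 fell and 1 rose. SRSF3, a splicing factor, fell at -0.89 ± 0.10, and MATR3, a protein of the nuclear matrix, gave -0.97, -2.14 and -1.81 on the Piedmontese arrays, against -0.83, -0.59 and -0.51 on the Wagyu arrays. The study traced raised MATR3 at d 60 to a single amplified Piedmontese sample and saw no significant difference between the crosses in total RNA. The part of that sample in the Piedmontese values was not tested. NPM1 (nucleophosmin) fell at -0.79 ± 0.23 and the splicing proteins HNRNPF at -0.51 ± 0.18 and HNRNPA2B1 at -0.34 ± 0.10, the last with a dye effect past the threshold. The cold-shock protein YBX3 rose at 0.48 ± 0.12. Without Piedmontese replicate 3 or Wagyu replicate 3, 3 genes of the list fell.

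Of 11 cytosolic heat shock and chaperonin genes 6 rose, 3 fell and 2 did not pass. HSPB6 (0.70 ± 0.10), HSPB8 (0.69 ± 0.14), HSPB7 (0.65 ± 0.15), HSPB1 (0.71 ± 0.20) and CRYAB (0.60 ± 0.14), small chaperones that bind to sarcomeres, rose, as did HSP90AA1 (0.51 ± 0.16), whose 4 elements disagreed in sign. HSPB1, HSPB6, HSPB7 and CRYAB are also counted in the thin filament and Z-disc list. HSPA8 (-0.48 ± 0.17), its partner DNAJA1 (-0.50 ± 0.09) and the chaperonin subunit CCT8 (-0.79 ± 0.16) fell. HSP90AB1, the other cytosolic HSP90 (-0.22 ± 0.50), and CCT6A, another chaperonin subunit (-0.64 ± 0.25), did not pass in the mean, although CCT6A fell in the Piedmontese cross (-1.10 ± 0.32) and, without Wagyu replicate 2, in the mean (-0.96). Of 14 proteasome and ubiquitin genes 2 rose (14.3%) and 2 fell (14.3%), near the 14.0% and 17.0% over all features. ASB5, a substrate receptor of a ubiquitin ligase in muscle, rose at 0.86 ± 0.13, PSMD8, of the proteasome lid, at 0.92 ± 0.26, and UBA1, the ubiquitin-activating enzyme, fell at -0.83 ± 0.19. USP19, a deubiquitinase, fell at -1.54 ± 0.42 with only 5 array values, which spread from -3.63 to -0.23. Of 14 selenium and redox genes 0 rose and 2 fell (14.3%, near the 17.0% over all features). The falls were the peroxiredoxins PRDX1 (-0.56 ± 0.19) and PRDX3 (-0.43 ± 0.16), and 0 fell without Piedmontese replicate 1 or 2 or without Wagyu replicate 2. The selenoprotein gene SELENOW (-0.26 ± 0.15) and SOD2, the mitochondrial superoxide dismutase (-0.19 ± 0.11), did not pass.

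Markers of other cell types could be read only in part. Of 21 markers of blood 1 was measured, GYPC of the red cell membrane, at 0.0039 ± 0.09. Of the markers of epidermis, cartilage and nerve 0 were measured under a gene name, so that their part in the d 60 tissue was not tested. Of 5 endothelial and mural markers 1 rose, EGFL7, an endothelial secreted protein, with 2.04, 1.27 and 0.62 on the Piedmontese arrays, against 1.25, 0.85 and 0.64 on the Wagyu arrays. The smooth muscle and mural genes ACTA2 (0.27 ± 0.13), CNN1 (0.62 ± 0.45) and NOTCH3 (0.06 ± 0.14) and the endothelial EMCN (-0.26 ± 0.12) did not pass in the mean, although EMCN fell in the Piedmontese cross (-0.64 ± 0.16). The medians of these 5 markers lay between 0.07 and 0.39 on the Piedmontese arrays and between 0.03 and 0.22 on the Wagyu arrays. Of 5 immune markers 1 rose, C1QA, a complement gene of macrophages, at 0.95 ± 0.24, with 3.04 on Wagyu array 2 and 0.25 to 0.99 on the other 5. CD74 (0.42 ± 0.16) and BOLA-DRB3 (0.26 ± 0.12) of antigen presentation, S100A8 of myeloid cells (0.15 ± 0.13) and the lysosomal protease CTSS (-0.04 ± 0.11) did not pass in the mean, although CD74 rose in the Wagyu cross (0.70 ± 0.21). Both fibroblast and tendon markers were below 0 in the mean without passing, FMOD at -0.50 ± 0.43 and LOX at -0.27 ± 0.13. The part of these cells in the results above was not tested.

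The step was then fitted in each cross. In the Piedmontese cross 103 named genes rose (10.6%, against 11.6% of all features) and 174 fell (17.8%, against 15.2%), or 28.4% of the genes against 26.7% of the features. In the Wagyu cross 66 rose (6.77%, against 6.83%) and 48 fell (4.92%, against 4.95%), or 11.7% of the genes against 11.8% of the features. The balance of rises and falls in a single cross turned over with the centring of the arrays: over all features 43.3% of the Piedmontese and 58.0% of the Wagyu calls were rises, against 61.4% and 35.6% without centring. The genes past the threshold in both crosses numbered 97, 55 up and 42 down, with 0 of opposite sign. That is 35.0% of the Piedmontese calls, 85.1% of the Wagyu calls and 9.95% of all named genes, where 9.32% of all features were shared in this way. Of the 114 genes called in the Wagyu cross, 114 had the same direction in the Piedmontese fit, and of the 277 called in the Piedmontese cross, 261 had the same direction in the Wagyu fit. The number of Wagyu calls rested on few arrays. Over all features it was 1962, and 661 without Wagyu replicate 2, 1024 without replicate 3 and 1130 without replicate 1. In the Piedmontese cross it was 4455, and 2944 without Piedmontese replicate 2. The features shared by both crosses numbered 1553, against 598 without Wagyu replicate 2, 822 without Wagyu replicate 3 and 919 without Wagyu replicate 1.

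The largest rises past the threshold were TCAP, CA3, CKM, CYC1 and RTN2 in the Piedmontese cross, and CA3, TCAP, PYGM, AK1 and CKM in the Wagyu cross. The fitted steps of TCAP were 2.06 ± 0.26 in Piedmontese-sired and 1.80 ± 0.26 in Wagyu-sired fetuses, and those of CA3 1.75 ± 0.24 and 1.82 ± 0.24. The largest falls were FN1, PHLDB2, COL12A1, ITGA10 and RPL5 in the Piedmontese cross, and IGFBP3, PHLDB2, FN1, HSP90B1 and IGFBP2 in the Wagyu cross. ITGA10, a collagen-binding integrin chain, gave -0.20, -1.62 and -1.66 on the Piedmontese arrays, against -1.70, -1.11 and -0.78 on the Wagyu arrays and had a dye effect past the threshold (-0.69 ± 0.14), so that its fitted steps of -1.84 ± 0.37 and -0.51 ± 0.37 differ from the means of the arrays.

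**Figure D3:**
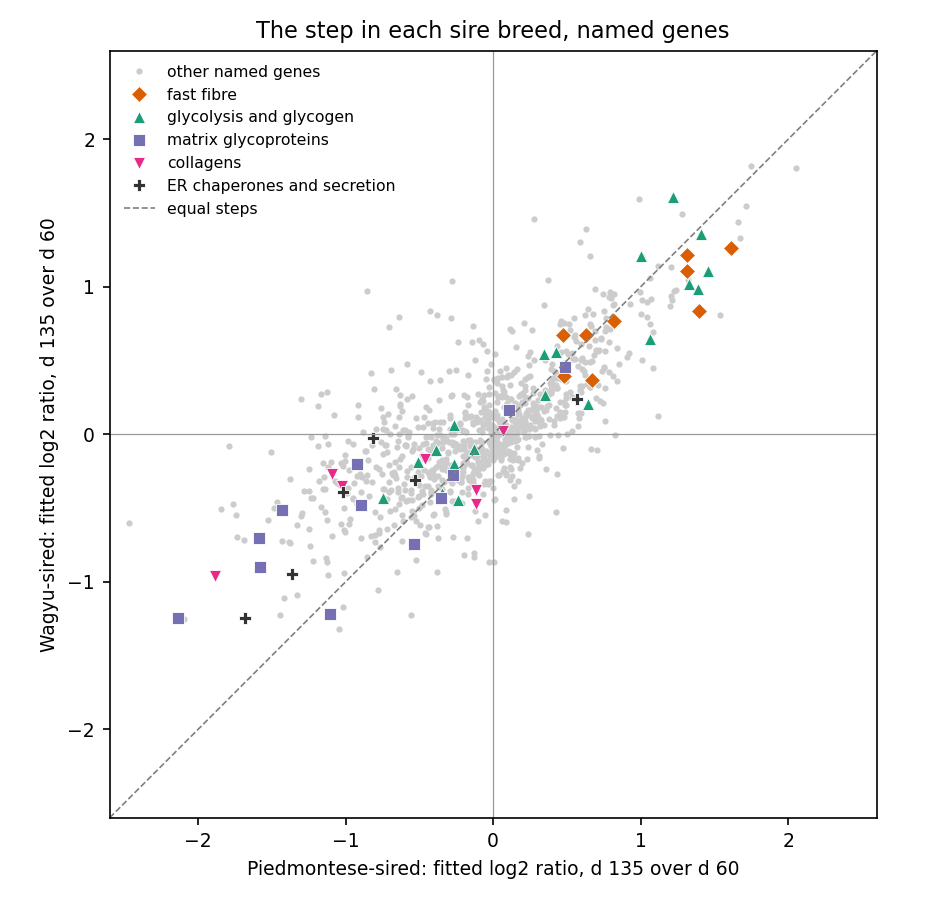
Fitted log2 ratio of d 135 over d 60 for each of 975 named genes, in the Piedmontese-sired cross (horizontal axis) and in the Wagyu-sired cross (vertical axis), with 5 lists in colour and a dashed line where both steps are equal. The fast fibre genes were above 0 on both axes, and FN1 lay above the dashed line, at -2.14 on the Piedmontese axis and -1.24 on the Wagyu axis.

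The difference between the steps was tested in the same fit. On the 6 arrays alone it cannot be told from a dye effect, so that it rests on the dye term that the other arrays of the loop provide. At the threshold 0 of 16659 features differed, and the smallest adjusted p was 0.0581. An unadjusted p under 0.05 was found for 1702 features, where 833 would have it with no difference at all, 311 with the Piedmontese step above and 1391 with it below. The centring bears on these sides. The median fitted step over all features was 0.003 in the Piedmontese and -0.04 in the Wagyu cross, against 0.16 and -0.19 without centring. In that setting 0 features passed and 2562 had an unadjusted p under 0.05, and their sides were not counted. The count changed with the choice of features: over the 13968 features with values on all 25 arrays, 381 passed, 12 with the Piedmontese step above and 369 below, and with weights for the arrays 615 passed, 37 above and 578 below. Among the named genes these were 20 and 38 genes. Of the 20, only S100A16 had the Piedmontese step above.

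ITGB1, the beta-1 integrin that receives fibronectin and laminin, had the smallest p among the named genes (1.87e-05 unadjusted, 0.0581 adjusted). It gave -1.82, -1.74 and -1.79 on the Piedmontese arrays, against -0.72, -0.18 and -0.46 on the Wagyu arrays, a difference of -1.30 ± 0.23 with an unadjusted 95% interval of -1.78 to -0.81. SERINC3, a membrane protein of the serine incorporator family, gave -0.74, -1.23 and -1.20 on the Piedmontese arrays, against -0.29, -0.11 and 0.03 on the Wagyu arrays. ACOT13, a mitochondrial thioesterase, gave -1.30, -0.97 and -1.16 on the Piedmontese arrays, against -0.08, -0.20 and -0.04 on the Wagyu arrays. In all 3 the Piedmontese arrays lay below every Wagyu array, and the Wagyu values were near 0 for SERINC3 and ACOT13. GTF2I, a general transcription factor, followed the same pattern at -1.18, -1.46 and -1.47 on the Piedmontese arrays, against -0.58, -0.66 and -0.51 on the Wagyu arrays. FLVCR2, with a difference of -1.04 ± 0.25, and WSB1, with -0.97 ± 0.24, fell in both crosses and further in the Piedmontese arrays. On the other side, S100A16, a calcium-binding protein, gave 0.43, 0.55 and 0.99 on the Piedmontese arrays, against 0.48, 0.42 and -0.41 on the Wagyu arrays, MB gave 1.27, 1.06 and 0.99 on the Piedmontese arrays, against 0.26, 0.54 and 0.47 on the Wagyu arrays, and PFN1, the actin-binding profilin, gave 0.55, 0.74 and -0.54 on the Piedmontese arrays, against -0.55, -0.76 and -0.33 on the Wagyu arrays. Only for MB did the arrays not overlap, and its difference was 0.63 ± 0.24 with an interval of 0.12 to 1.14. For the largest rises the interval of the difference held 0: it was 0.25 ± 0.34 for TCAP (interval -0.46 to 0.97), -0.07 ± 0.32 for CA3 (interval -0.74 to 0.59) and 0.002 ± 0.31 for ACTA1 (interval -0.64 to 0.64).

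Array values without overlap of the crosses were more often on the Piedmontese-below side. Of 935 named genes with 6 values, 89 had all Piedmontese arrays below all Wagyu arrays and 56 had them above, which is 9.52% and 5.99%, where the same shares over all features were 14.3% and 5.23%. Among the matrix glycoproteins 3 of 12 lay that way (FN1, FBN1 and SPARC), among the collagens 3 of 7, and among the fast fibre genes 0 of 9, with 1 of the 9 above. These are centred array values, in which dye and sire breed cannot be told apart, and the sides were not counted without centring.

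**Figure D4:**
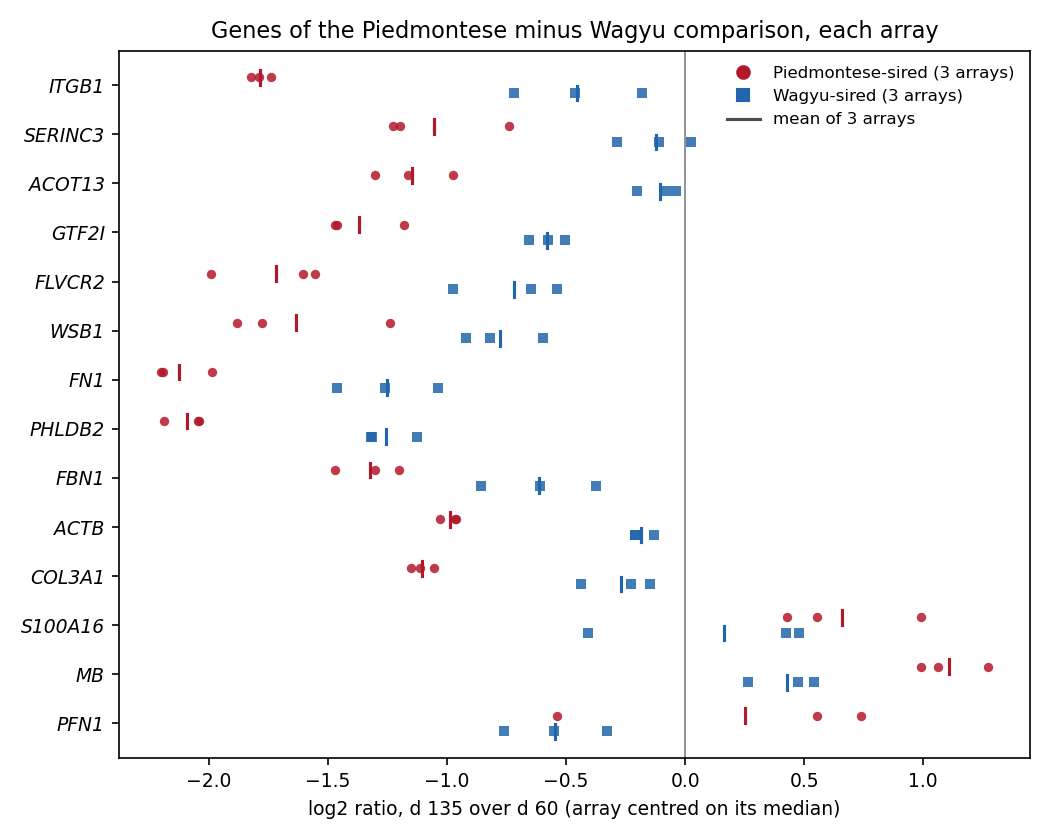
Log2 ratio of d 135 over d 60 on each array (points, with a bar at the mean of 3 arrays) for 14 genes described in the comparison of the crosses, with the Piedmontese-sired arrays above the Wagyu-sired arrays in each row. For the upper 11 genes all Piedmontese values lay below all Wagyu values, and ITGB1 stood between -1.82 and -1.74 in the Piedmontese cross and between -0.72 and -0.18 in the Wagyu cross.

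The step was set against the later ones in the same fit, as the mean of both sire breeds. It differed from the step of d 135 to d 195 for 58 named genes, 22 with the first step above (2.26%, against 1.60% of all features) and 36 with it below (3.69%, against 3.17%), which is 5.95% of the genes against 4.77% of the features. Both steps use the d 135 samples, and over all features 33.6% of the differences had the first step above, against 58.3% without centring. From the step of d 195 to birth, with which it shares no group, it differed for 394 genes, 211 above (21.6%, against 19.7% of all features) and 183 below (18.8%, against 21.2%), or 40.4% of the genes against 40.9% of the features. The later steps themselves were past the threshold for 14.8% of the named genes between d 135 and d 195 (16.8% of all features) and for 51.4% between d 195 and birth (52.5% of all features).

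Several genes rose between d 60 and d 135 and fell in a later step. CFB, CA3, FABP4, TMEM182 and SCARF1 were named for the largest excess of this step over the next. Since both steps use the d 135 samples, that choice favours a rise followed by a fall. CFB rose at 1.39 ± 0.17, then fell at -0.66 ± 0.16 from d 135 to d 195 and at -1.41 ± 0.17 from d 195 to birth. CA3 had later steps of -0.22 ± 0.17 and -0.83 ± 0.19, the last of which was a fall past the threshold. FABP4 fell by 0.86 on the log2 scale from d 135 to d 195. TMEM182, a transmembrane protein, rose at 0.98 ± 0.18 and fell at -0.55 ± 0.17 in the next step, and SCARF1, a scavenger receptor of endothelium, did likewise with 0.89 ± 0.12 and -0.55 ± 0.12. In the last step EGFL7 fell at -3.32 ± 0.26, CAV3 at -1.69 ± 0.15 and LGALS1 at -1.91 ± 0.20, each after a rise at the first. GPC3 and DLK1, a growth regulator of fetal tissues, did not pass in the first step, at -0.27 ± 0.13 and 0.38 ± 0.39. They fell at -3.66 ± 0.13 and -2.72 ± 0.39 in the last.

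Other genes took different courses over the 3 steps. IGFBP2 fell at -1.34 ± 0.15 and then stood at -0.24 ± 0.14 and -0.07 ± 0.15, neither past the threshold, and the first step differed from both later ones. IGFBP3 stood at -1.18 ± 0.25, -0.25 ± 0.26 and 0.06 ± 0.25 in the 3 steps, of which the first was the only one past the threshold. PHLDB2 fell at -1.67 ± 0.10 and then at -0.30 ± 0.10 and -1.75 ± 0.10, and CCN2 at -1.15 ± 0.19, with 0.18 ± 0.17 in the next step. FN1 fell in all 3 steps, at -1.69 ± 0.15, -0.56 ± 0.14 and -2.42 ± 0.15, and SPP1 at -1.16 ± 0.14, -1.94 ± 0.13 and -0.64 ± 0.14. The fast alpha-actinin ACTN3 rose at 0.52 ± 0.18 and further at 1.78 ± 0.17 and 0.84 ± 0.18. PHYH, a peroxisomal hydroxylase of branched fatty acids, was near 0 at -0.01 ± 0.18 and then rose at 1.32 ± 0.17 and 1.66 ± 0.18. The locus LOC613595, which has no name in the tables used, stood at -0.41 ± 0.18 and then rose at 1.12 ± 0.17. The genes with the largest rises of the last step against this one were PFKFB3, which makes an activator of glycolysis, LOC514507, FBXO40, a muscle ubiquitin ligase receptor, TXNIP, an inhibitor of glucose uptake, and PDK4, which shuts pyruvate out of the mitochondrion. PFKFB3 stood at -0.34 ± 0.27 in this step and 3.27 ± 0.27 in the last, FBXO40 at 0.70 ± 0.29 and 3.61 ± 0.29, TXNIP at -0.35 ± 0.16 and 2.50 ± 0.16, PDK4 at -0.12 ± 0.22 and 2.71 ± 0.22, and LOC514507 at -0.11 ± 0.42 and 2.90 ± 0.42. None of these 5 passed in the mean between d 60 and d 135, although TXNIP fell in the Piedmontese cross (-0.72 ± 0.21).

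**Figure D5:**
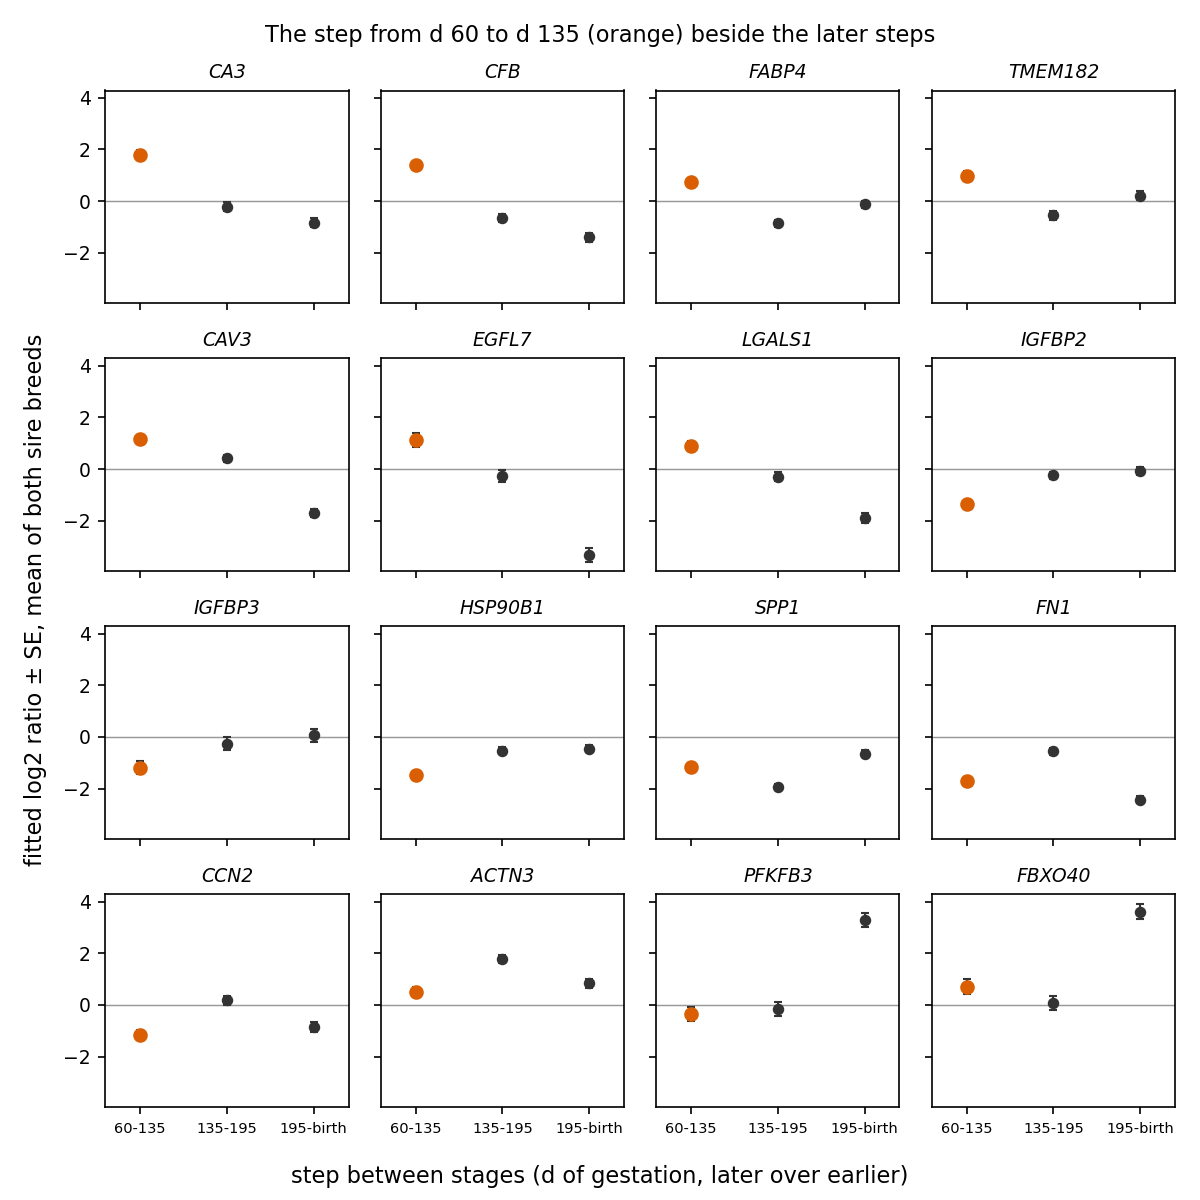
Fitted log2 ratio with its SE for 16 genes in the steps of d 60 to d 135 (orange), d 135 to d 195 and d 195 to birth, as the mean of both sire breeds, later stage over earlier. CFB stood at 1.39, -0.66 and -1.41, IGFBP2 at -1.34, -0.24 and -0.07, and FBXO40 at 0.70, 0.09 and 3.61.

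Genes that the study itself listed for their course over time were chosen on these samples and are no independent evidence of a direction. Of 16 measured genes of its falling list 14 fell at this step and 0 rose, and of 30 of its rising list 23 rose and 0 fell. In the single crosses 15 of the falling list fell in the Piedmontese fit and 4 in the Wagyu fit, with medians of -1.10 and -0.48. Of the rising list 20 and 17 rose. For this step the study's own ratios went down for ACTA1, ACTN3, LDHA, MYH1, PDLIM3, SLC25A4, TMOD4 and YBX3, which all rose here. It marked a significant rise for AK1, ALDOA, CKM, CYC1, ENO3, MB, MYOZ1, PPP1R27 and TCAP. Its ratios for CASQ1, HSP90AA1, PFKM, PGAM2, PGM1 and PYGM were flat or up without such a mark. Its ratios for the 14 falls all went down. The cause of the difference was not tested. Members that did not pass included COL1A1 and GPC3 on the falling side and MYOT, a Z-disc protein (0.43 ± 0.17), CMYA5, a costamere protein (0.42 ± 0.19), ANKRD1, a stretch-induced ankyrin repeat protein (-0.06 ± 0.26), and COQ8A, of ubiquinone synthesis (0.16 ± 0.23), on the rising side. GNAI1, an inhibitory G protein subunit, fell at -0.75 ± 0.12, while TMOD4, which caps the pointed ends of thin filaments, rose at 0.85 ± 0.13 and PPP1R27, a phosphatase regulator of muscle, at 0.96 ± 0.11.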

How the data were processed

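The values were deposited by the authors as log2 ratios, 1 for each array element, in the table of normalised values, and per the labels both channels of an array held amplified RNA of a different group. The methods state that intensities were background corrected and log transformed for the study's own model, and which of these steps the deposited log2 ratios went through is not given in the sources used here. Array medians were subtracted, and log2 ratios of 16.6 or more, where the table ends, were treated as missing. Of 21168 elements, 4490 carried 1 gene name through the platform annotation and were averaged per gene, 16490 without a name were kept as they were, and 188 with several names stayed unnamed. Duplicate prints of an unnamed probe can therefore count as separate features in the shares over all features. Features with values on at least 20 of the 25 arrays were fitted with limma 3.58.1 (R 4.3.3) with 8 groups and a dye term, with Benjamini-Hochberg adjustment across the 16659 features and calls at 0.05. The study's own mixed model on single channels was not used here, since it needs the separate intensities. In the text a value with ± is the fitted log2 ratio with its SE, and array values are the measured ones.

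The members of the comparison and the gene lists were chosen with earlier results of these data known. Genes were named by rule: the 10 largest rises and falls of the mean step with 1 sign on all 6 arrays, the 5 largest of each cross, the 3 smallest p-values on each side of the difference between crosses, the 5 largest of each side against each later step, the 4 smallest p-values of each list, the measured markers and the genes listed by the study. Others, such as ENO1, LDHB, MYF6, the slow isoforms, the IGF genes, GTF2I, HSP90AB1, CCT6A and USP19, were named after their values were seen. Alternatives changed the centring, scaling, weights, arrays, dye term, missing values, averaging and replicates, and the fit was tested on simulated data. The table held 44 other columns, of other tissues and comparisons, of which only the self-hybridised array was used, and a second table of 77 columns was not used. No sequences or coordinates are given, since the reference at hand holds gene names only.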

Additional observations from a re-analysis of the deposited data

Results flagged for a closer look

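Single arrays stood far from the other 5 for 19 of 213 genes named here, by Dixon's test on the 6 ratios, which chance passes in about 1 of 20 groups. Piedmontese array 1 held the extreme value for ENO1 (0.242) and GAPDH (1.29), and Piedmontese array 2 for IDH1 (-1.06), IGFBP4 (-1.17) and NDUFB9 (0.836). Piedmontese array 3 held it for ACTN3 (1.25), AK1 (-0.539), NDUFA6 (1.41) and PRDX3 (0.492). Wagyu array 1 held it for ATP5MG (0.174), COL12A1 (-0.408), CTSK (-0.356) and PPP1R27 (0.553). Wagyu array 2, which had the most missing ratios, held it for C1QA (3.04), CCT6A (1.00), SRGN (-2.09), ASB5 (1.12) and HSPA5 (-0.204), and Wagyu array 3 for NPM1 (-1.83).

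ATP5F1A, a subunit of ATP synthase, was below 0 on all 3 Piedmontese arrays and above 0 on all 3 Wagyu arrays, with -0.70, -0.98 and -0.56 on the Piedmontese arrays, against 0.06, 0.29 and 0.04 on the Wagyu arrays. Its step in the Piedmontese cross minus that in the Wagyu cross was -0.722, and the test of this difference did not pass (limma adjusted p = 0.379). Of 935 named genes with 6 values, 21 had opposite signs in the crosses in this way, with adjusted p-values of the difference between 0.063 and 0.94, and ATP5F1A is the only one of them whose values are given above.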

How the results depend on the processing

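The number of features past the threshold in the mean of both crosses was 5161, and it stayed within 1.5 times of that in every alternative. In the Wagyu cross it was 1962, against 1260 without centring, 3675 with array weights and 3153 with every element kept. The features shared by both crosses numbered 1553, against 837, 2552 and 2566 in these alternatives. A difference between the crosses was called for 0 features, against 615 with array weights and 381 with values on all 25 arrays, of which 6.02% and 3.15% had the Piedmontese step above. A difference from the step of d 135 to d 195 was called for 795, against 314 without centring and 2745 with array weights, and a difference from the step of d 195 to birth for 6812, against 4099 with scaling by the spread. The causes were not tested. Leaving out 1 array gave 4056 to 4624 features in the mean, 2944 to 4357 in the Piedmontese cross, 661 to 1861 in the Wagyu cross, 598 to 1308 shared, 0 to 5 for the difference, 242 to 281 named genes, 450 to 642 against the next step and 6050 to 6363 against the last.

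With the array number as a replicate block the counts were 5005 in the mean, 4339 Piedmontese, 1859 Wagyu, 1479 shared, 0 for the difference, 299 named genes, 733 and 6699 against the later steps. Deviations of Piedmontese and Wagyu arrays with the same number correlated at 0.04, -0.08 and 0.08, and the replicate block changed no count by over 1.5 times. Arrays of different crosses share no fetus, so these correlations cannot show whether a number marks shared fetuses within a cross.

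Of 215 genes with values above, 38 passed in the mean and lost the call when some single array was left out. Without Piedmontese replicate 1 these were ARF4, ASPH, ATP2A1, ATP5MK, COX7B, DES, EEF1D, HSPA8, LUM, MYH1, PRDX1, PRDX3 and SDC2. Without Piedmontese replicate 2 they were ARF4, COL1A2, COX7B, CTSK, EEF1D, ENO1, HNRNPF, HSPA8, IGFBP4, IGFBP5, JPH1, LUM, PRDX1, PRDX3, SDC2 and SPARC. Without Piedmontese replicate 3 they were ACTN3, COL1A2, COX5B, COX7B, CTSK, ENO1, HNRNPA2B1, HNRNPF, HSP90AA1, HSPA8, IDH3A, IGFBP6, LDHA, MGP, NDUFA6, PSMD8, RPN1, RPSA, S100A16, SPARC, TPM3 and USP19. Without Wagyu replicate 1 they were ACTN3, ASPH, ATP5MK, EEF1D, ENO1, HNRNPF, HSPA8, IGFBP6, JPH1, LUM, MYH1, PRDX3, S100A16 and SDC2. Without Wagyu replicate 2 they were ACTN3, ARF4, ASPH, COL1A2, COX7B, CTSK, ENO1, HNRNPF, HSP90AA1, IDH3A, IGFBP5, JPH1, LDHA, NDUFA6, PRDX1, PRDX3, PSMD8, S100A16, SPARC and THRSP. Without Wagyu replicate 3 they were ACTN3, ARF4, ASPH, ATP5MK, COL1A2, COX5B, COX7B, CTSK, ENO1, HNRNPF, HSP90AA1, HSPA8, IDH3A, LUM, MGP, NDUFA6, NPM1, PRDX3, SDC2, SPARC, TPM3 and USP19. Their log2 values then had sizes between 0.277 and 1.24, and each had moved by at most 0.431.

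Some genes that did not pass changed sign in some alternatives and passed in none of these. With ratios at the limit of the table kept, COL6A2 stood at 1.20 in place of -0.29 and SRGN at 1.14 in place of -0.44. HMGA1 stood at 0.0020 without centring and at 0.0028 with scaling. Leaving out 1 array gave -0.20 to 0.087 for ANKRD1, -0.092 to 0.16 for ATP5F1B, -0.12 to 0.016 for CTSS, -0.038 to 0.066 for GYPC, -0.018 to 0.018 for HMGA1, -0.60 to 0.24 for HSP90AB1, -0.063 to 0.10 for IGF2, -0.46 to 0.18 for LOC514507, -0.0088 to 0.16 for NOTCH3, -0.27 to 0.049 for PFN1 and -0.057 to 0.056 for PHYH.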

Other observations

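Beside the lists, a few genes changed by more than 2-fold. SLC25A28, an iron carrier of the mitochondrial membrane, rose at 1.17 ± 0.21 with 1.27, 1.84 and 1.32 on the Piedmontese arrays, against 1.20, 0.67 and 0.73 on the Wagyu arrays. DDB1, an adaptor of ubiquitin ligases in DNA repair, fell at -1.03 ± 0.16 with -1.24, -1.29 and -0.29 on the Piedmontese arrays, against -1.47, -0.88 and -1.04 on the Wagyu arrays. RWDD4 and KIAA1191 fell at -1.08 ± 0.15 and -1.09 ± 0.27. All 4 were picked for their values.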
